A study of Rattus norvegicus with 6 samples.

Results

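miR-126a is a miRNA of blood vessels, and both mature strands of its stem-loop were followed here in plasma exosomes of rats. Its members were taken by name from the deposited miRNA counts, as the rows rno-miR-126a-3p and rno-miR-126a-5p, which are 2 of the 763 rows. Both were counted in all 6 libraries and both passed the filter on low counts. The libraries came from plasma exosomes of male Sprague-Dawley rats aged 7 to 8 weeks. The R-exo group (3 libraries) was taken 48 h after RIPC, remote ischemic pre-conditioning, in which rubber bands stopped the blood flow of both hind limbs under anesthesia for 4 cycles of 5 minutes, each with 5 minutes of reperfusion. The C-exo group (3 libraries) was taken at the same time from control rats without RIPC. For collection at 48 h every animal of either group was under anesthesia, and the abdominal aorta was reached through the opened abdomen to take blood. Whether plasma of several rats was pooled in a library is not given in the sources used here, so p-values measure the spread between these libraries.

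miRNAs are cut from a stem-loop, and either arm of the stem can be loaded into an Argonaute protein, where bases 2 to 8 (the seed) direct it to target transcripts. The stem-loop of miR-126 sits inside the gene Egfl7, which encodes a secreted factor of the vessel wall, and it is transcribed mainly in endothelial cells. miR-126-3p is known for raising VEGF and FGF signaling in endothelium by repressing Spred1 and Pik3r2, and for repressing the adhesion molecule Vcam1. miR-126-5p is known for repressing the Notch ligand Dlk1 in endothelial cells. Platelets and blood progenitors also contain miR-126, so plasma can hold it from more than a single source, and fewer vesicles of a source and fewer copies per vesicle cannot be told apart in these libraries.

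The mature strands are shown because the 2 arms are read as separate rows and must not be confused with each other or with the miRNA of the opposite DNA strand. Each is printed 5′ to 3′ from the RefSeq annotation of the rat assembly GRCr8, with the seed in capitals:
miR-126a-3p: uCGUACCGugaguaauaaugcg
miR-126a-5p: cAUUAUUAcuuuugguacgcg
miR-126b: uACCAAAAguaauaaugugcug

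The 3p arm is 22 bases long and the 5p arm 21 bases. The arms formed 18 base pairs with each other when they were folded as a duplex, and 16 bases of the loop lie between them. Their seeds differ from each other, so the arms address different sites. Among the 686 rows of the table that have a mature sequence in RefSeq, no other row had the seed of either arm. The row closest to the 3p arm in an ungapped alignment, miR-503-5p, had 9 mismatches, and the row closest to the 5p arm, miR-29a-5p, had 8. In the gene table of the same assembly the stem-loop of miR-126a carries the symbol Mir126b, and it lies within the span of the gene entry Mir126a, which holds miR-126b on the opposite strand. Both lie within the span of Egfl7. miR-126b is antisense to the 5p arm over 17 bases, and to the 3p arm over 0 bases. Its total count over the 6 libraries was 0.

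The 6 libraries held between 5484209 and 7531737 reads counted on miRNAs, and 3 counts, the least taken as detectable, equal 0.398 to 0.547 CPM (counts-per-million miRNA reads). C-exo replicate 3 stood apart from its group. Its rank correlation with C-exo replicates 1 and 2 across the 404 tested miRNAs was 0.902 and 0.931, and with R-exo replicates 1, 2 and 3 it was 0.965, 0.981 and 0.983. Here the points are miRNAs and not samples. The first pair of C-exo libraries also showed fewer miRNAs with any count, 471 and 494, against 530 in C-exo replicate 3 and 541 to 544 in R-exo. Results are given with and without C-exo replicate 3 where it decides them. Every pair of libraries differed by far more than counting noise, so none was the same library read again. This does not show that they came from different plasma.

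The first comparison asked how much of the 3p arm the exosomes carried after RIPC. miR-126a-3p was more abundant in every R-exo library than in any C-exo library, 2.53-fold on the fitted scale, and it met the criterion used here for a call (fold change over 2, unadjusted p under 0.05), but not an adjusted p under 0.05. The study gives the same thresholds without saying whether its p was adjusted. The arm held 20665, 55823 and 111674 reads in C-exo replicates 1, 2 and 3, and 163073, 138159 and 227545 reads in R-exo replicates 1, 2 and 3. As a share of all miRNA reads, it made up 0.377%, 0.794% and 1.48% in C-exo and 2.32%, 1.98% and 3.08% in R-exo. The lowest R-exo library thus stood above the highest C-exo library before any scaling between libraries. By rank among all miRNAs of a library, the 3p arm was number 30, 21 and 21 in C-exo and number 14, 15 and 10 in R-exo. It was an abundant miRNA in every library and came nearer to the top of the list after RIPC.

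Counts were then scaled with TMM factors, which correct for the make-up of each library, to give normalized CPM. The 3p arm had 4632, 7147 and 15885 CPM in the C-exo libraries and 20080, 19837 and 30019 CPM in the R-exo libraries, with means of 9221 ± 5906 and 23312 ± 5810 CPM (SD, n = 3 each). The gap between C-exo replicate 3 and R-exo replicate 2, the neighbours across the groups, was smaller than either SD. C-exo varied more, with a coefficient of variation of 64.0% against 24.9% in R-exo, and the highest C-exo library was 3.43 times the lowest. Counting error was far smaller than this spread: in C-exo replicate 1, the shallowest library, 3768 RPM (CPM without TMM factors) had a Wilson 95% interval of 3717 to 3820. Such intervals cover counting error only, since reads amplified by PCR without molecular identifiers are not independent molecules.

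**Figure D1:**
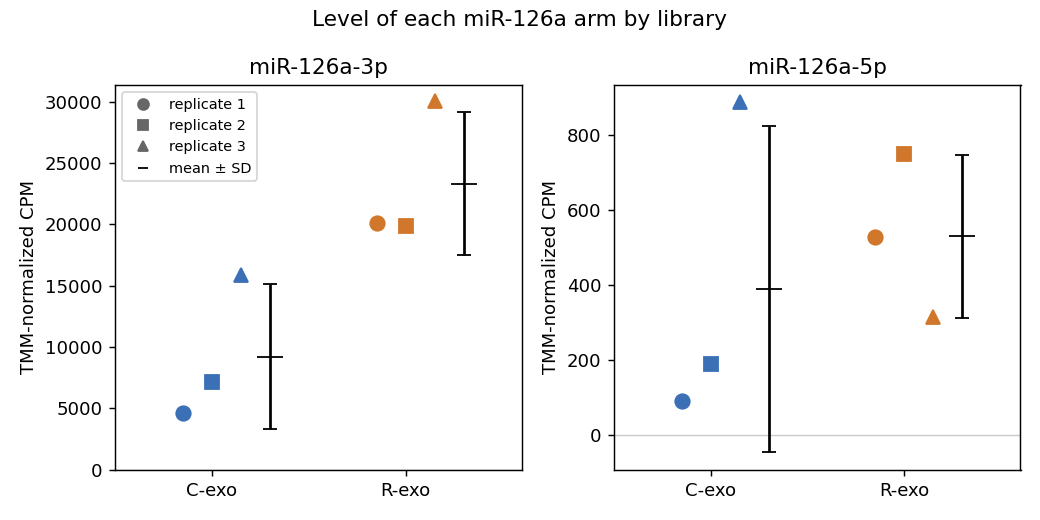
Level of miR-126a-3p (left) and miR-126a-5p (right) in TMM-normalized CPM on a linear axis, with a point for each library of C-exo and R-exo, and the mean ± SD (n = 3) beside them. For the 3p arm every R-exo point, from 19837 CPM, lies above every C-exo point, up to 15885 CPM, whereas for the 5p arm C-exo replicate 3, at 888 CPM, is the highest of all.

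The log2 fold change of the 3p arm, R-exo over C-exo, was 1.34 (standard error 0.52, 95% interval 0.17 to 2.51). The edgeR quasi-likelihood p was 0.029 before and 0.46 after Benjamini-Hochberg adjustment over the 404 tested miRNAs. Of these miRNAs, 1.98% were called higher in R-exo by this criterion and 7.43% lower, while 0 (0%) had an adjusted p under 0.05, 38 had an unadjusted p under 0.05, and DESeq2 and limma-voom also gave 0 at an adjusted p under 0.05. The split of these calls between directions depended on the scaling: 8 were higher and 30 lower with TMM, 12 and 25 with RLE factors, and 18 and 15 with library size only. It depended on the tool and model too. With TMM kept, 27 were higher and 22 lower in limma-voom, and 25 and 13 in edgeR with a term for replicate number. The study picked miR-126a-3p from these same libraries, so its values here are no independent evidence of its direction. The study also measured miR-126a-3p in exosomes by qRT-PCR and reported the most significant rise for it among the miRNAs measured. Whether other rats were used for that is not given in the sources used here. In 4.95% of the tested miRNAs every R-exo library stood above every C-exo library, as it did for the 3p arm. The exact two-sided permutation test gave p = 0.1, the smallest that 3 libraries against 3 allow.

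**Figure D2:**
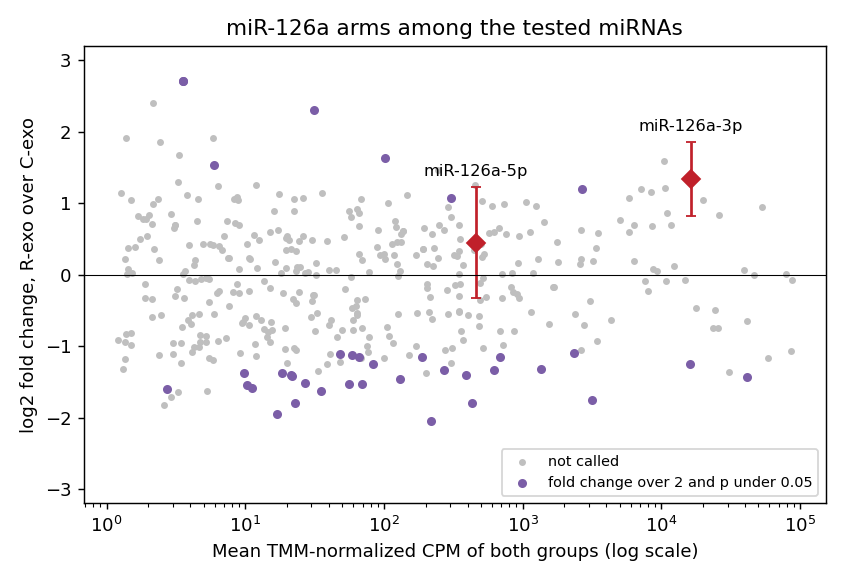
log2 fold change of R-exo over C-exo against the mean TMM-normalized CPM of both groups (log axis) for the 404 tested miRNAs, with called miRNAs (over 2-fold, unadjusted p under 0.05) in purple and the miR-126a arms in red with their standard errors. The 3p arm, at 1.34, lies at the right among the abundant miRNAs, and the 5p arm, at 0.45, lies in the middle of the cloud.

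The 3p arm was higher in R-exo under every setting tried, and leaving out single libraries changed its size most. Leaving out C-exo replicate 3 gave a log2 fold change of 1.998 (adjusted p = 0.0058 with edgeR), in a fit in which 31.3% of the 422 tested miRNAs had an adjusted p under 0.05 and 23.7% were called higher in R-exo. It was 1.01 when C-exo replicate 1 was left out, 1.24 without the second control and 1.08 without R-exo replicate 3, and the unadjusted p was then 0.061, 0.075 and 0.10 with edgeR, so that the criterion was no longer met. Scaled to 4 reference miRNAs of plasma (miR-191a-5p, miR-425-5p, miR-103-3p and miR-107-3p) in place of TMM, the fit gave 1.33. In each library the log2 ratio of the 3p arm to the geometric mean of these 4 was 1.57, 2.70 and 3.62 in C-exo and 3.73, 3.68 and 4.85 in R-exo. On this scale too the groups did not overlap, though C-exo replicate 3 lay close below the lowest R-exo library.

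The second comparison asked the same of the opposite arm. miR-126a-5p was much rarer than the 3p arm, varied widely among the control libraries, and did not pass the test. It held 405, 1479 and 6245 reads in C-exo replicates 1, 2 and 3, and 4302, 5224 and 2387 reads in R-exo replicates 1, 2 and 3. On the normalized scale these were 90.8, 189 and 888 CPM in the C-exo libraries and 530, 750 and 315 CPM in the R-exo libraries. The groups overlapped, because C-exo replicate 3 stood above all R-exo libraries, while C-exo replicates 1 and 2 stood below them all. The means were 389 ± 435 CPM in C-exo and 532 ± 218 CPM in R-exo (SD, n = 3 each), so the SD of C-exo exceeded its mean. The highest C-exo library was 9.79 times the lowest, against 2.38 times in R-exo. The counting error was smaller: the 73.8 RPM of C-exo replicate 1 had a Wilson 95% interval of 67.0 to 81.4, and the 829 RPM of C-exo replicate 3 one of 809 to 850.

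The log2 fold change of the 5p arm, R-exo over C-exo, was 0.45 (standard error 0.77, 95% interval -1.29 to 2.19), with an unadjusted p of 0.58 and an adjusted p of 0.80 with edgeR. An exact permutation test, two-sided, gave 0.5. The interval holds both no change and the change of the 3p arm. Its tagwise dispersion, an estimate made for each miRNA, was 0.427 and above that of 87.4% of the tested miRNAs. The tagwise dispersion of the 3p arm, 0.236, was above that of 42.3%. The value of the 5p arm depended on single libraries of both groups. Without C-exo replicate 3, the control with the most of both arms, the log2 fold change was 1.93 (adjusted p = 0.014 with edgeR). In that fit the 3p arm had 1.998, and 31.3% of the 422 tested miRNAs had an adjusted p under 0.05. Leaving out the highest control enlarges the difference, so this value is no separate support for a rise. The log2 fold change of the 5p arm was -0.02 without C-exo replicate 1, and 0.16 each without C-exo replicate 2 or R-exo replicate 2. Without R-exo replicate 3 it was 0.70. It was 0.99 with limma-voom, which averages log2 values, each weighted by its precision, where edgeR compares fitted means on the count scale. As a log2 ratio to the 4 reference miRNAs the 5p arm was at -4.10, -2.54 and -0.54 in C-exo and at -1.52, -1.05 and -1.73 in R-exo, with a difference of means of 0.96 against 1.46 for the 3p arm. The mean of logs thus gave the 5p arm a change over 2 times that of the edgeR fit, and the exact two-sided permutation p stayed at 0.5.

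**Figure D3:**
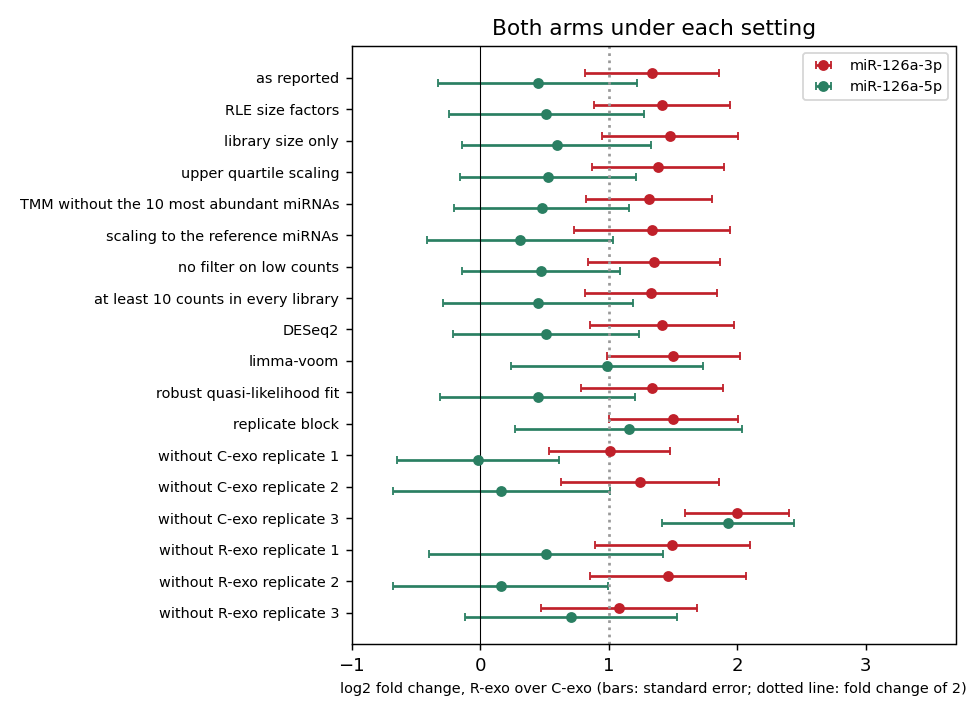
log2 fold change of R-exo over C-exo with its standard error for miR-126a-3p (red) and miR-126a-5p (green) under each setting of the scaling, the filter, the tool and the libraries used. The dotted line marks a fold change of 2, and the 3p arm lies between 1.01 and 1.998 throughout, whereas the 5p arm runs from -0.02 without C-exo replicate 1 to 1.93 without C-exo replicate 3.

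The third comparison set the arms against each other within each library, where no scaling between libraries is needed. The 3p arm dominated in all 6 libraries, but by very different factors. In C-exo replicates 1, 2 and 3 there were 51.0, 37.7 and 17.9 reads of the 3p arm for each read of the 5p arm. In R-exo replicates 1, 2 and 3 there were 37.9, 26.4 and 95.3. The lowest ratio was that of a control library and the highest that of an R-exo library, with the other 4 libraries of both groups interleaved between them. As a share of the reads of both arms, the 5p arm made up 1.92%, 2.58% and 5.30% in C-exo and 2.57%, 3.64% and 1.04% in R-exo. The Wilson 95% intervals were 5.17% to 5.43% for C-exo replicate 3 and 0.998% to 1.08% for R-exo replicate 3, so these libraries differed by far more than counting error. Ligation can favour either strand, so a ratio of reads is no ratio of molecules.

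On the log2 scale the arm ratio was 5.02 ± 0.78 in C-exo and 5.51 ± 0.95 in R-exo (SD, n = 3 each). The difference, R-exo minus C-exo, was 0.49 (standard error 0.66, 95% interval -1.06 to 2.05). This is a difference of means of logs, and it corresponds to the 1.46 and 0.96 on that scale rather than to the gap between the edgeR fold changes of 1.34 and 0.45. In limma, fitted to all 110 miRNA names with both arms tested, its unadjusted p was 0.48 and its adjusted p 0.69, and an exact permutation test, two-sided, gave 0.5. Among the 110 names, 6.36% passed 0.05 before adjustment and 0 (0%) after it. A difference in the change of the arms was thus not detectable with these libraries, and the interval is too wide to show that the arms changed alike. From the lowest to the highest library the arm ratio of miR-126a spanned 2.41 on the log2 scale, number 47 of the 110 names by that span, for which the median was 2.17. Without R-exo replicate 3 the difference was -0.04, without R-exo replicate 2 it was 0.89, without C-exo replicate 1 it was 0.82, and without C-exo replicate 3 it was 0.06.

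**Figure D4:**
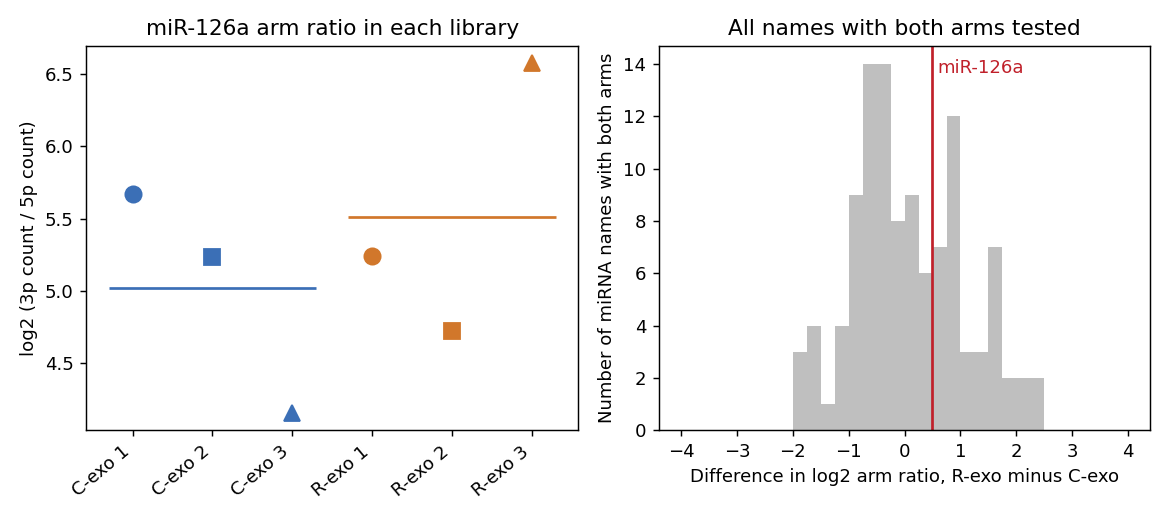
Left, the log2 ratio of 3p to 5p counts of miR-126a in each library, with a line at each group's mean (5.02 in C-exo, 5.51 in R-exo). Right, the difference in log2 arm ratio between the groups for the 110 miRNA names with both arms tested, with miR-126a at 0.49 marked in red, inside the bulk of the names.

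The arms also differed in which libraries carried most of each. In C-exo both arms were lowest in replicate 1 and highest in replicate 3. In R-exo the orders were different, since replicate 3 had the most of the 3p arm, 30019 CPM, and the least of the 5p arm, 315 CPM. Over the 6 libraries the Pearson correlation of the log2 CPM of the arms was 0.759, a description over points that share 2 groups and their depth. By the same measure, the 5 tested miRNAs with the pattern most like that of the 3p arm were miR-208a-3p, miR-340-5p, miR-21-5p, miR-26b-5p and miR-101a-3p, with correlations of 0.959, 0.956, 0.953, 0.951 and 0.946. miR-208a-3p, a heart miRNA made from an intron of Myh6, was close to the floor, from 0 CPM in C-exo replicate 1 up to 5.94 CPM in R-exo replicate 3, so its likeness rests on few reads. miR-21-5p, a miRNA of many cell types that responds to injury, had 6379, 6349 and 26264 CPM in the C-exo libraries and 21929, 26972 and 31322 CPM in the R-exo libraries. Its groups overlapped at C-exo replicate 3, where those of the 3p arm did not.

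For the 5p arm the most similar patterns were those of miR-214-3p, miR-382-3p, miR-452-3p, miR-30b-5p and miR-3068-3p, with correlations of 0.995, 0.984, 0.964, 0.963 and 0.961. None of the 5 was among those of the 3p arm. miR-214-3p, which is made with miR-199a from a shared transcript of mesenchymal cells, had 103, 167 and 333 CPM in the C-exo libraries and 271, 299 and 208 CPM in the R-exo libraries. Like the 5p arm it was highest in C-exo replicate 3 and, within R-exo, lowest in replicate 3. The log2 fold changes of these 5 lay between 0.06 and 0.48, beside 0.45 for the 5p arm, and none was called. They were chosen for their likeness to the 5p arm over these same libraries, so this follows in part from the choice.

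Other miRNAs of the endothelium and of vessel growth were measured beside miR-126a in a list of 25, which holds the miR-17/92 and miR-23/27 clusters, miR-221 and miR-222, miR-10, miR-210 and others. Of these, 24 were tested and miR-126b had 0 counts. Only miR-132-3p, a miRNA of vessel growth driven by CREB, was called, with 2.69, 1.41 and 4.98 CPM in the C-exo libraries and 10.8, 10.5 and 5.15 CPM in the R-exo libraries (log2 fold change 1.54, adjusted p = 0.46, edgeR). It was near the floor in C-exo, and its highest C-exo library lay just below the lowest R-exo library. That is 1 of 24 called higher and 0 called lower, beside 1.98% and 7.43% of all tested miRNAs. The median log2 fold change of the 24 was 0.26, with 17 of 24 above 0, against -0.05 over all tested miRNAs. Under the 5 other scalings the median of the 24 was between 0.18 and 0.42. The medians of the red cell list, 0.42 with 6 of 8 above 0, and of the leukocyte list, 0.46 with 5 of 6 above 0, were higher than that of the endothelial list. Those of the smooth muscle, liver and reference lists, 0.08, -0.01 and 0.05, changed sign with the scaling. The most abundant of the endothelial list, miR-378a-3p, which is made from an intron of Ppargc1b, had a log2 fold change of -1.16 (adjusted p = 0.47, edgeR), and miR-27a-3p, of the miR-23/27/24 cluster, one of 0.70 (adjusted p = 0.67, same test). The list also holds let-7f-5p, which the study picked from these libraries, so its log2 fold change of 1.597 is not independent of the choice. The summed level of the list was 108677 to 134768 RPM in C-exo and 109709 to 113477 in R-exo, and miR-378a-3p made up much of it, most of all in C-exo replicates 1 and 2. The other members summed to 22205, 26346 and 86054 RPM in C-exo and to 49081, 85408 and 81716 RPM in R-exo. The sum without miR-378a-3p, which was not planned beforehand, was thus lowest in C-exo replicates 1 and 2, as was the 3p arm. Its groups overlapped, since C-exo replicate 3 had the highest sum of all. The sum of the whole list was instead highest in C-exo replicates 1 and 2. Without C-exo replicate 3, 10 of the 24 were called higher and 3 lower, beside 23.7% and 19.4% of all miRNAs tested in that fit.

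Platelets are another known source of miR-126, and a list of 10 platelet miRNAs was read against it. None of the 10 was called (0 of 10), beside 1.98% called higher and 7.43% lower over all tested miRNAs, and at such shares a list of this size is too short to read from its count. The median log2 fold change was -0.28. miR-223-3p, abundant in platelets and myeloid cells, had 793, 428 and 444 CPM in the C-exo libraries and 576, 388 and 334 CPM in the R-exo libraries, and its groups overlapped. miR-340-5p, also among the patterns most like the 3p arm, had a log2 fold change of 1.02, and in all 4 of the 10 were above 0. The most abundant of the list were miR-21-5p and miR-191a-5p, with log2 fold changes of 1.04 and -0.47. The summed level of the list was 35922, 28394 and 53359 RPM in C-exo and 52482, 48856 and 52144 in R-exo, low in the same C-exo libraries in which the 3p arm was lowest, and miR-21-5p and miR-191a-5p made up most of it. The part of platelet RNA in the level of miR-126a was not tested.

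Markers of other cells and tissues that plasma can hold were present as well, and each list member had counts in at least 1 library, with miR-208a-3p at 0 in C-exo replicate 1. Of 8 red cell miRNAs, 2 were called higher and 0 lower, beside the same 1.98% and 7.43% of all tested miRNAs, namely both arms of miR-144, a miRNA of erythroid cells, with log2 fold changes of 1.07 for miR-144-3p and 1.63 for miR-144-5p (adjusted p = 0.46 each, edgeR). Like let-7f-5p, miR-144-3p was among the miRNAs the study picked from these libraries for qRT-PCR, so its call is not independent of the choice. The most abundant, miR-486 and miR-25-3p, had log2 fold changes of -1.07 and 0.11. The summed level of the red cell list was 79984 to 172433 RPM in C-exo and 64801 to 94897 in R-exo. The log2 ratio of miR-451-5p to miR-23a-3p, which is used as a sign of red cell lysis, was -0.36, -0.22 and 0.56 in C-exo and -0.79, 0.88 and -0.82 in R-exo. The ratio was lowest in R-exo replicate 3, the library with the most miR-126a-3p. miR-451-5p itself had 2060 CPM there and 2023 CPM in C-exo replicate 1. miR-23a-3p, also a member of the endothelial list, was higher in every R-exo library than in any C-exo library (log2 fold change 0.59). The ratio thus moves with both miRNAs and cannot be read as lysis alone. The part of lysis in the result was not tested.

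None of the 4 smooth muscle miRNAs was called, and the counts of this list and of those that follow stand beside the same 1.98% called higher and 7.43% lower of all tested miRNAs. Their summed level was 9349, 49937 and 52774 RPM in C-exo and 50166, 79933 and 91544 in R-exo, nearly all of it miR-143-3p, a miRNA of vascular smooth muscle whose log2 fold change was 0.94 (adjusted p = 0.51, edgeR). Like the 3p arm it was lowest in C-exo replicate 1 and highest in R-exo replicate 3. miR-145-3p, the next in level, had a log2 fold change of -0.17. Of the 6 leukocyte miRNAs 0 were called, and the most abundant, miR-181a-5p and miR-142-5p, had log2 fold changes of -0.08 and 0.86. The leukocyte list summed to 22235 to 46110 RPM in C-exo and 31239 to 50808 in R-exo, and the groups overlapped. Of the 3 liver miRNAs 0 were called, and miR-192-5p and miR-122-5p had log2 fold changes of -0.01 and -0.65, with a sum of 64978 to 116164 in C-exo and 76252 to 93984 in R-exo. Of the 7 striated muscle miRNAs 0 were called, and miR-1-3p and miR-133a-3p had log2 fold changes of -0.55 and -0.33, while 5 of the 7 were above 0 and the list's median was 0.011, with a sum of 1750 to 9167 in C-exo and 1800 to 6903 in R-exo. The liver and striated muscle sums overlapped between the groups as well. Of the 4 reference miRNAs 0 were called, and the most abundant, miR-191a-5p and miR-425-5p, had log2 fold changes of -0.47 and -0.70, against 0.59 for miR-103-3p and 0.57 for miR-107-3p and a median of 0.05. Without C-exo replicate 3, the number called higher was 4 of 8 in the red cell list, 4 of 7 in the striated muscle list, 2 of 10 in the platelet list, 2 of 6 in the leukocyte list, 1 of 4 in the smooth muscle list, 1 of 3 in the liver list and 0 of 4 in the reference list, beside the 23.7% of all miRNAs tested in that fit. The number called lower was 1 each in the red cell, platelet, smooth muscle and reference lists and 0 in the others of these lists, beside 19.4%.

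**Figure D5:**
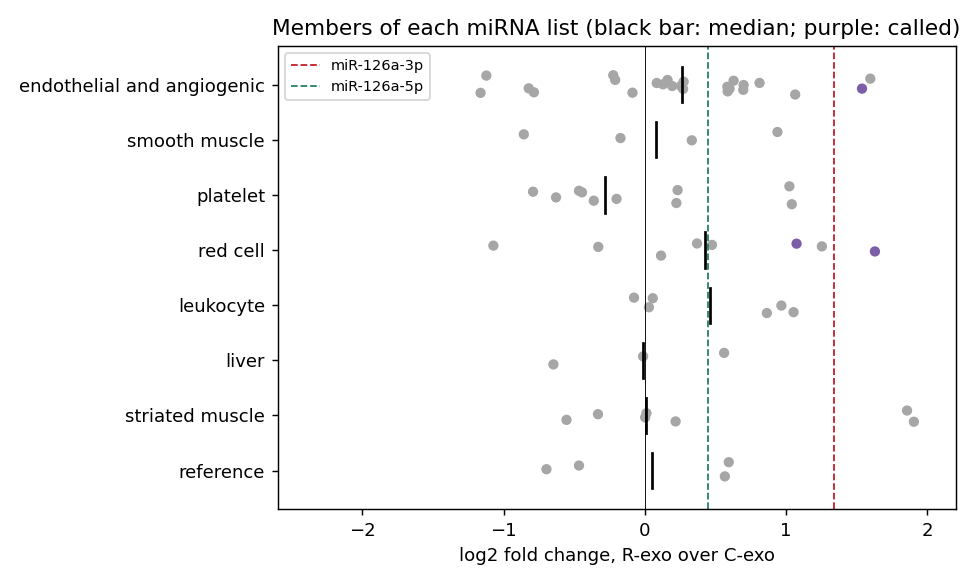
log2 fold change of R-exo over C-exo for the tested members of each miRNA list, with the median as a black bar, called members in purple, and the values of miR-126a-3p (1.34) and miR-126a-5p (0.45) as dashed lines. The 3p arm lies to the right of every list's median and of most members.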

How the data were processed

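Small RNA libraries of plasma exosomes (3 C-exo, 3 R-exo) were read on a HiSeq instrument. The deposited values are raw counts per mature miRNA, 1 column a library. The submitters' processing notes name bcl2fastq, BWA and the build rn6. How reads were assigned to miRNAs (database, mismatches, several matches) is not given in the sources used here.

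Groups and replicate numbers were read from the labels. The counts went into edgeR 4.0.16 (R 4.3.3): filterByExpr by group (minimum count 10, minimum total 15; 404 of 598 miRNAs with any count), TMM, and the quasi-likelihood test with condition as the only term. CPM refer to the reads on tested miRNAs, and log2 CPM used a prior count of 2. Arm ratios, log2 of the 3p over the 5p count with 0.5 added to each, were fitted with limma 3.58.1. Single values were compared with exact permutation tests. For the sequencing, the methods of the paper name a cluster analysis, and for data of 2 groups in general a t or rank test. The paper's thresholds (fold change over 2, p under 0.05) were kept, with the p read as unadjusted, and a count model was used because the values are counts. Alternatives were other scalings, filters and tools (DESeq2 1.42.0, limma-voom), a replicate block, and each library left out. Duplexes were folded with ViennaRNA 2.7.2, and figures drawn with matplotlib 3.10.9. The fits were run on simulated counts as a check of the code. Recovery of planted changes was required only at a dispersion of 0.05, below the common dispersion of these data, 0.285. The simulation thus says nothing of the power at the spread seen here.

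The members and lists were chosen with earlier results of these data known. Named in the text are both arms, the 2 most abundant and any called miRNA of each list, and the 5 miRNAs most like each arm. miR-223-3p, let-7f-5p, miR-103-3p, miR-107-3p and the miRNAs of the red cell lysis ratio were named outside this rule, with their values seen. The sum of the endothelial list without miR-378a-3p was not planned beforehand either.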

Additional observations from a re-analysis of the deposited data

How the results depend on the processing

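With all 6 libraries, the 11 alternatives left miR-126a-3p called, with a log2 fold change of 1.31 to 1.503 and an adjusted p of 0.30 to 0.52 (edgeR, DESeq2 or limma), and miR-126a-5p uncalled, at 0.31 to 1.15. With 1 library left out, miR-126a-3p ran from 1.01 to 1.998 and was called in 3 of 6 fits, miR-126a-5p ran from -0.016 (without C-exo replicate 1) to 1.93 (without C-exo replicate 3), and the difference in arm ratio ran from -0.039 (without R-exo replicate 3) to 0.89. The number of miRNAs called, 38 as reported, was 63 without the filter on low counts, and 15 to 182 with 1 library left out, with 182 without C-exo replicate 3, 15 without C-exo replicate 1 or R-exo replicate 3, 18 without C-exo replicate 2 and 16 without R-exo replicate 2. The cause was not tested. Of the called miRNAs, 8 were higher in R-exo as reported, against 12 of 37 with RLE factors, 18 of 33 with library size only, 17 of 49 with DESeq2, 27 of 49 with limma-voom and 27 of 63 without the filter. The median log2 fold change of all tested miRNAs was -0.05 with TMM and 0.10 with library size only. Replicate numbers are shared by the groups, but the rats differ, and the deviations of same-numbered libraries correlated at 0.33, -0.28 and 0.28, so the numbers were not taken as pairs. With the replicate block, the log2 fold change was 1.502 for miR-126a-3p and 1.15 for miR-126a-5p, the difference in arm ratio 0.49, and the number called 38, of which 25 were higher in R-exo, and no call of the members changed. The number of called list members without C-exo replicate 3 was an alternative chosen after seeing the data. With 3 libraries a group the permutation tests could not go below 0.1.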
